A study of Mus musculus with 14 samples.

Results

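CRTC2 and NF-κB p65 peaks were examined around 8 mouse genes: *Tnfsf15*, *Sod2*, *Pim1*, *Smim3*, *Dnajb6*, *Notch3*, *Ptpn1* and *Akap2*. Each is the protein-coding gene whose start site, taken from protein-coding transcripts, lies nearest to a locus where a CRTC2 peak and a p65 peak overlapped after combined treatment of 3T3-L1 adipocytes with forskolin (FSK) and TNFα. There were 476 such co-bound loci, and the 8 described here were chosen by their high peak scores, out of 21853 protein-coding genes in all. The number of co-bound loci depends on the rule and was 240 when both peaks had to be 8-fold over input. Because the CRTC2 and p65 values with FSK/TNFα chose the genes, those values are given as a description only.

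3T3-L1 is a mouse preadipocyte line that forms fat cells in culture, and the cells had been differentiated for several days. They were left untreated (control) or exposed for 1 h to FSK (10 µM), to TNFα, or to FSK and TNFα together. No transgene, deletion or mutation is named in the labels for any group. Chromatin was immunoprecipitated for CRTC2, p65 and histone H3 acetylated at lysine 27 (H3AcK27), with 1 library for each of the 12 combinations, so no difference between treatments can be set against a replicate and no p-value is given.

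The CRTC2 libraries held 16438040 to 31807394 tags, the p65 libraries 20490261 to 26904732, and the H3AcK27 libraries 9832884 to 27966129, the lowest being H3AcK27 with FSK. Peaks that missed the calling threshold are not listed, and "not listed" is used below in that sense. Peaks of the 2 treatments without FSK were called against input from untreated cells and those of the 2 with FSK against input from FSK-treated cells, so the input and the FSK treatment cannot be told apart. The adipocyte label was checked by H3AcK27 over start sites. Regions lay over the start sites of 4 of 10 adipocyte markers in control cells and missed *Adipoq*, *Plin1*, *Cebpa*, *Cd36*, *Cidec* and *Retn* under every treatment, whereas 6 of 6 preadipocyte or fibroblast markers had one in control cells. Macrophage markers had 1 or 2 of 6 and endothelial markers 0 of 4.

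FSK activates adenylyl cyclase and raises cAMP. Protein kinase A then phosphorylates CREB and blocks the salt-inducible kinases that hold the coactivator CRTC2 in the cytoplasm, so that CRTC2 enters the nucleus and joins CREB at cAMP response elements (CREs). TNFα acts through IκB kinase to free NF-κB, whose p65 subunit binds κB sites of cytokine, survival and antioxidant genes. H3AcK27 marks active promoters and enhancers. In adipose tissue the cAMP route is known for driving lipolysis and the TNFα route for inflammation and insulin resistance.

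The 8 genes have varied roles. *Tnfsf15* encodes a cytokine of the TNF family, *Sod2* the mitochondrial superoxide dismutase and *Pim1* a serine/threonine kinase that promotes survival. *Notch3* encodes a receptor for Notch ligands, *Ptpn1* the phosphatase PTP1B, which dephosphorylates the insulin receptor, and *Akap2* an anchoring protein for protein kinase A. *Dnajb6* encodes a cochaperone of HSP70, and *Smim3* a small integral membrane protein. *Tnfsf15*, *Sod2* and *Pim1* also belong to the list of NF-κB candidate genes used below.

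Loci were ordered by the sum of 2 ranks, that of the CRTC2 peak and that of the p65 peak in their FSK/TNFα lists, each by the peak-calling score. *Smim3* was number 2 of 476 with CRTC2 rank 51 and p65 rank 26. *Tnfsf15* was number 3 with ranks 95 and 3, *Dnajb6* number 4 with 67 and 40, and *Notch3* number 5 with 54 and 56. *Sod2* was number 8 with 251 and 6, *Ptpn1* number 11 with 22 and 320, *Akap2* number 13 with 233 and 141, and *Pim1* number 14 with 353 and 40. Among the 8, *Tnfsf15* and *Sod2* had the best p65 ranks, *Ptpn1* the best CRTC2 rank and the worst p65 rank, and *Pim1* the worst CRTC2 rank. These ranks chose the loci. The CRTC2 list held 14171 peaks and the p65 list 4221, so the 2 ranks are not on the same scale. The loci skipped on the way, at places 1, 6, 7, 9, 10 and 12, were nearest to *Cebpb*, *Lif*, *Cxcl1*, *Osmr*, *Olfr279* and *Ier3*. *Pim1*, the last one taken, had a rank sum of 393, and the next locus, nearest to *Kdm6b*, had 431.

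**Figure D1:**
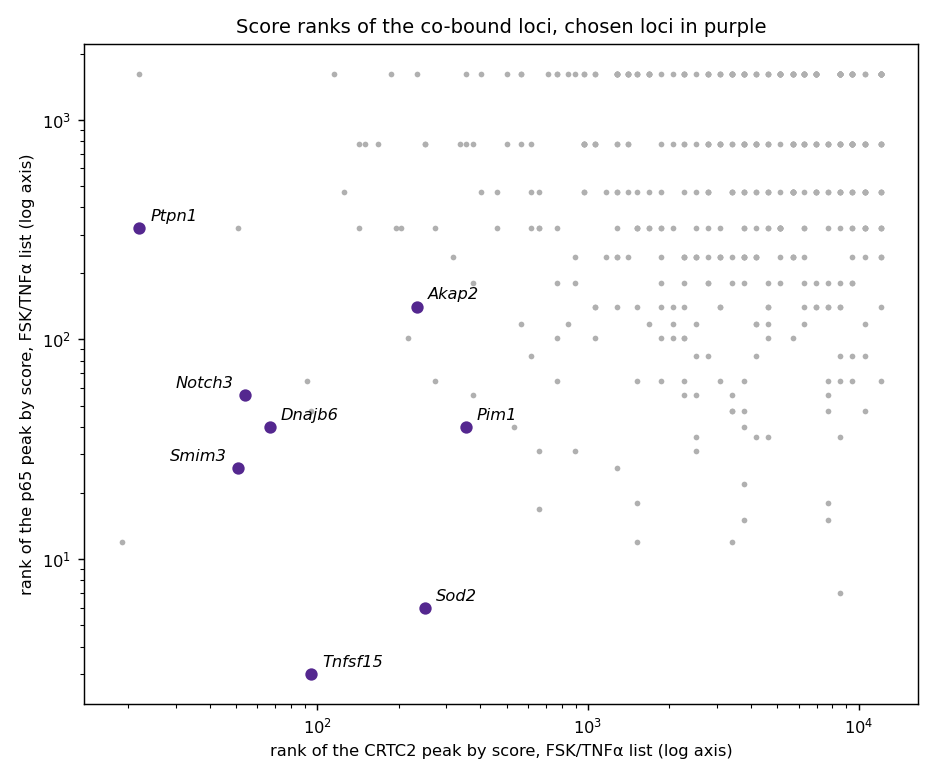
Rank of the CRTC2 peak (horizontal) against rank of the p65 peak (vertical) by score in the FSK/TNFα lists for all 476 co-bound loci, both on log axes, with the 8 chosen loci in purple. *Tnfsf15* and *Sod2* sit at p65 ranks 3 and 6, whereas *Ptpn1* sits at CRTC2 rank 22 and p65 rank 320.

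The sequences below are 200 bases centered on the locus midpoint, from the plus strand of GRCm38 as given by RefSeq, and are shown for the loci whose motifs differ most. Capitals mark a CRE core (TGACG on either strand) or, at *Tnfsf15*, 2 overlapping matches to a broad κB consensus that was chosen after the sequences had been seen.
Tnfsf15 intron, chr4:63740818-63741017: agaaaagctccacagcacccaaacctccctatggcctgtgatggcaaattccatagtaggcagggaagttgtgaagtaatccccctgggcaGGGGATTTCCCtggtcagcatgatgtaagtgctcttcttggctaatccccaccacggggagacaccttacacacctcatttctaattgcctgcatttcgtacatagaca
Sod2 intron, chr17:13010101-13010300: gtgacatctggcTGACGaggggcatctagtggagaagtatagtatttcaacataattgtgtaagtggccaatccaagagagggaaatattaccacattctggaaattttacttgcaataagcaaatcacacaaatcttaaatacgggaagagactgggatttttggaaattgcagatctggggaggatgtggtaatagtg
Dnajb6 downstream, chr5:29864409-29864608: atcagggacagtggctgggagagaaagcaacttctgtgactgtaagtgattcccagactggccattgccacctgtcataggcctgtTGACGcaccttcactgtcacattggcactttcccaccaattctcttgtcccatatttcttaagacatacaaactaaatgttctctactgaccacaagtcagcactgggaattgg
Notch3 downstream, chr17:32108735-32108934: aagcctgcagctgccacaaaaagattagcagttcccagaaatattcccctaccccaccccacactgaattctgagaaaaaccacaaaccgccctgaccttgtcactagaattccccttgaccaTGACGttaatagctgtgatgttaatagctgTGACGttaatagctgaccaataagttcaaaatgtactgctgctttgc
Ptpn1 upstream, chr2:167860630-167860829: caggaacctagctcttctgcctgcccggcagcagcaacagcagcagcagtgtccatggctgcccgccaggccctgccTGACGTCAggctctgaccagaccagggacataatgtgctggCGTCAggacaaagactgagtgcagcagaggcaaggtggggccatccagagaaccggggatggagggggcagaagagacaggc

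The CRE core was found at 4 of the 8 loci, against 21.0% of all 476 co-bound loci and 7.46% of windows of the same size placed 2 kb to either side. *Ptpn1* alone among the 8 held the full palindrome TGACGTCA, which 2.10% of all co-bound loci held, and its 2 overlapping cores were centered 23 and 20 bp from the CRTC2 peak midpoint, with a further core 18 bp from that midpoint. *Notch3* held 2 cores in a repeated stretch, 11 and 19 bp from the CRTC2 midpoint. The core at *Dnajb6* was 44 bp and that at *Sod2* 59 bp from the CRTC2 midpoint.

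The strict NF-κB consensus was found at 0 of the 8 loci and at 4.83% of all loci. With the broad κB consensus, *Tnfsf15* was the 1 locus of 8 with a match, against 31.1% of all loci and 3.78% of windows 2 kb away, and the match was centered 18 or 19 bp from the p65 peak midpoint. The C/EBP motif TTGCNNCAA was found at 1 locus, that of *Smim3*, against 3.99% of all loci. AP1 sites (TGANTCA with C or G as the middle base) were found at 0 of 8 loci in 200 bp, against 27.9% of all loci. In 400 bp they were found at 6 of 8 loci, against 37.0% of all loci and 7.46% of windows 2 kb away, at distances of 132 to 193 bp from the locus midpoint, and *Pim1* and *Ptpn1* were the 2 without one. All motifs were searched on both strands, and a match is a description of the letters in the window.

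*Tnfsf15* (ENSMUSG00000050395, chr4:63727084-63745113, minus strand) had its co-bound locus in an intron, 4196 bp inside the start site, at chr4:63740821-63741013. CRTC2 was listed there only with FSK/TNFα, at 58.5 normalized tags, meaning tags scaled to 10000000 per library. p65 was not listed in control or with FSK and had 47.9 normalized tags with TNFα and 94.2 with FSK/TNFα, 1.97-fold more. No H3AcK27 region was listed at the locus in any of the 4 libraries, the nearest being 10952 to 11321 bp away, which sets it apart from the other 7 genes in these lists. The input was also high here. The 11 CRTC2 and p65 peaks within 130 kb of the gene had 4.44 to 19.7 normalized tags in the matching input, with a median of 9.05, whereas the median over all 60443 CRTC2 and p65 peaks was 1.11. The peak-calling score is not corrected for input, and by fold over input the locus was 387th of 476.

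*Sod2* (ENSMUSG00000006818, chr17:13006846-13040063, plus strand) also carried its locus in an intron, 2383 bp from the nearest start site of a protein-coding transcript, at chr17:13010093-13010307. Another *Sod2* transcript, not annotated as protein-coding, starts 140 bp from the locus midpoint. CRTC2 was again listed there only with FSK/TNFα, at 39.0 normalized tags. p65 was not listed in control and had 15.2 normalized tags with FSK, 64.7 with TNFα and 75.6 with FSK/TNFα. The p65 values with TNFα and FSK/TNFα were close, at a ratio of 1.17, and both were over 4-fold above FSK. H3AcK27 over the locus had 65.5 normalized tags per kb in control, 76.5 with FSK, 134.5 with TNFα and 143.8 with FSK/TNFα, so the level per kb was 2.05-fold higher with TNFα than in control and 1.17-fold higher with FSK. The listed region was also wider with TNFα, at 6791 bp against 3992 bp in control, and its summed tags were 3.49-fold higher.

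*Pim1* (ENSMUSG00000024014, chr17:29490753-29496112, plus strand) had its locus 21069 bp upstream, between genes, at chr17:29469573-29469795. CRTC2 was listed at 9.1 normalized tags with FSK and at 39.9 with FSK/TNFα, 4.37-fold more, and was not listed in control or with TNFα. p65 was listed only with FSK/TNFα, at 34.2 normalized tags. The *Pim1* locus thus had the largest CRTC2 ratio of FSK/TNFα to FSK among the 6 loci listed with both. That ratio rests on a weak FSK peak, with a score of 10 where the lowest in its list was 9. The FSK peak, at chr17:29469684-29469844, only partly overlapped the FSK/TNFα peak at chr17:29469573-29469735. H3AcK27 had 37.2 normalized tags per kb in control, 60.8 with TNFα and 51.5 with FSK/TNFα, and was not listed with FSK, in the shallowest library. The start site of a noncoding antisense gene, *Gm26885*, lay 53 bp from the locus.

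*Notch3* (ENSMUSG00000038146, chr17:32120820-32166852, minus strand) had its locus past the end of the gene, 11986 bp from the gene body, at chr17:32108717-32108952. CRTC2 had 75.4 normalized tags with FSK, 12.5 with TNFα and 72.3 with FSK/TNFα, and was not listed in control. p65 was listed only with FSK/TNFα, at 30.7 normalized tags. The CRTC2 values with FSK and FSK/TNFα were nearly equal, at a ratio of 0.959, whereas p65 was not listed with either agent alone. The matching input held 0.36 to 0.73 normalized tags at the CRTC2 peaks with FSK and FSK/TNFα and the p65 peak, and by fold over input the locus was 6th of 476. H3AcK27 had 114.7 normalized tags per kb in control, 193.2 with FSK, 121.0 with TNFα and 161.6 with FSK/TNFα, highest in both libraries with FSK.

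*Ptpn1* (ENSMUSG00000027540, chr2:167932057-167979385, plus strand) had its locus 71598 bp upstream of the nearest start site, at chr2:167860646-167860813. CRTC2 had 91.3 normalized tags with FSK, 10.2 with TNFα and 114.1 with FSK/TNFα, the highest CRTC2 value among the 8 loci. p65 was listed only with FSK/TNFα, at 15.1 normalized tags, the lowest p65 value among the 8. This p65 peak was 4.11-fold over input, near the 4-fold calling limit, and the co-bound call at *Ptpn1* rests on it. The CRTC2 and p65 midpoints were 5 bp apart, closer than at the other 7 loci, whose gaps ran up to 110 bp. H3AcK27 had 105.9 normalized tags per kb in control, 104.3 with FSK, 117.1 with TNFα and 127.9 with FSK/TNFα. These levels cover listed regions of 11054, 21596, 29071 and 26938 bp, with 1171.0, 2252.6, 3405.2 and 3446.7 normalized tags in all, and the control and FSK regions shared only 3769 bp. The first locus of the whole order, nearest to *Cebpb*, also lies on this side of *Ptpn1*, and the start site of *Cebpb*, a C/EBP transcription factor and CREB target, was 171814 bp from the *Ptpn1* locus.

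*Akap2* (ENSMUSG00000038729, chr4:57717657-57896984, plus strand) had its locus in an intron, 5819 bp upstream of the nearest of its start sites, at chr4:57839320-57839537. The annotation also places the locus in an intron of the overlapping gene *Pakap*. CRTC2 had 51.7 normalized tags with FSK and 55.3 with FSK/TNFα and was not listed in control or with TNFα, where the nearest peak lay 33 bp outside the locus. p65 was listed only with FSK/TNFα, at 37.1 normalized tags. The locus therefore resembled *Notch3* in having CRTC2 at like levels with FSK and FSK/TNFα and p65 with both agents only. H3AcK27 had 80.0 normalized tags per kb in control, 129.1 with FSK, 117.4 with TNFα and 162.7 with FSK/TNFα.

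*Dnajb6* (ENSMUSG00000029131, chr5:29735688-29818134, plus strand) was the gene farthest from its locus, at 100033 bp from the nearest start site and 46374 bp beyond the gene body, at chr5:29864372-29864644. CRTC2 had 49.3 normalized tags with FSK, 11.7 with TNFα and 67.0 with FSK/TNFα. p65 had 15.2 normalized tags with FSK, 19.3 with TNFα and 28.3 with FSK/TNFα, so it was listed under all 3 treatments, as at *Sod2*. The TNFα peak of CRTC2 lay at chr5:29864580-29864736 and overlapped the locus but not the CRTC2 peak of FSK/TNFα. H3AcK27 had 110.7 normalized tags per kb in control, 189.5 with FSK, 170.4 with TNFα and 196.9 with FSK/TNFα. The *Dnajb6* locus was also co-bound with FSK alone, where it was number 3 of 65 co-bound loci, and it was the only one of the 8 to be so.

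*Smim3* (ENSMUSG00000038059, chr18:60474191-60501987, minus strand) had its locus in an intron, 20652 bp inside the start site, at chr18:60481227-60481444. CRTC2 had 71.8 normalized tags with FSK and 71.1 with FSK/TNFα and was not listed in control or with TNFα. p65 was listed only with FSK/TNFα, at 38.6 normalized tags. The CRTC2 values were thus equal to within 1 tag while p65 was listed with both agents only. The input was low, at 0.37 to 0.74 normalized tags, and by fold over input the locus was 13th of 476. H3AcK27 had 70.7 normalized tags per kb in control, 83.5 with FSK, 55.6 with TNFα and 68.7 with FSK/TNFα, over listed regions of 1476, 4005, 2694 and 5661 bp.

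Over the 8 loci, CRTC2 was listed at 0 in control, 6 with FSK and 3 with TNFα. Over all 476 co-bound loci the shares were 3.99% in control, 56.5% with FSK and 23.3% with TNFα. The 3 peaks with TNFα were 5.02-fold to 6.41-fold over input, and CRTC2 was listed at 0 of the 8 loci with TNFα when 8-fold over input was required, and also at 0 with CRTC2 lists of equal size. The 2 loci without CRTC2 under FSK were those of *Tnfsf15* and *Sod2*. They had the highest p65 values of the 8 with FSK/TNFα, in the list that helped choose the loci. p65 was listed at 0 of the 8 loci in control, 2 with FSK and 3 with TNFα, against 0.840%, 5.88% and 26.5% of all co-bound loci. The 5 loci where p65 was listed only with FSK/TNFα were those of *Pim1*, *Smim3*, *Notch3*, *Ptpn1* and *Akap2*, and all 5 had CRTC2 with FSK. By the shares just given, p65 was also listed only with FSK/TNFα at most of the 476 loci, so this does not set the 5 apart. The share of all loci with both traits was not counted. With FSK alone the 2 p65 values were 15.2 each, and these 2 peaks were 4.60-fold over input, near the 4-fold calling limit. A locus where a factor was not listed may hold tags under that limit.

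H3AcK27 was listed at 7 of the 8 loci in control, 6 with FSK, 7 with TNFα and 7 with FSK/TNFα, against 92.4%, 89.7%, 95.4% and 94.5% of all co-bound loci. At 6 of the 8 loci it was listed in all 4 libraries. The median level over listed loci was 80.0 normalized tags per kb for the members and 70.7 for all co-bound loci in control, 116.7 and 78.2 with FSK, 117.4 and 80.1 with TNFα, and 143.8 and 81.0 with FSK/TNFα. H3AcK27 regions were called separately in each library, so the level per kb and the summed tags can move apart. At *Sod2* and *Pim1* the level per kb with TNFα was 2.05-fold and 1.63-fold that in control, in regions 1.70-fold and 1.37-fold wider, and the summed tags were 3.49-fold and 2.24-fold higher. At *Notch3* the level per kb with FSK was 1.68-fold that in control and at *Dnajb6* 1.71-fold, in regions 0.908 and 0.941 times as wide, with summed tags 1.53-fold and 1.61-fold higher. At *Akap2* the level per kb was 1.61-fold higher with FSK and 1.47-fold higher with TNFα, and the summed tags were 1.35-fold and 1.71-fold higher. At *Smim3* the 2 measures took opposite directions with TNFα, since the level per kb was 0.787 times that in control while the region was 1.83-fold wider and held 1.44-fold more tags. Each of these ratios compares single libraries.

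**Figure D2:**
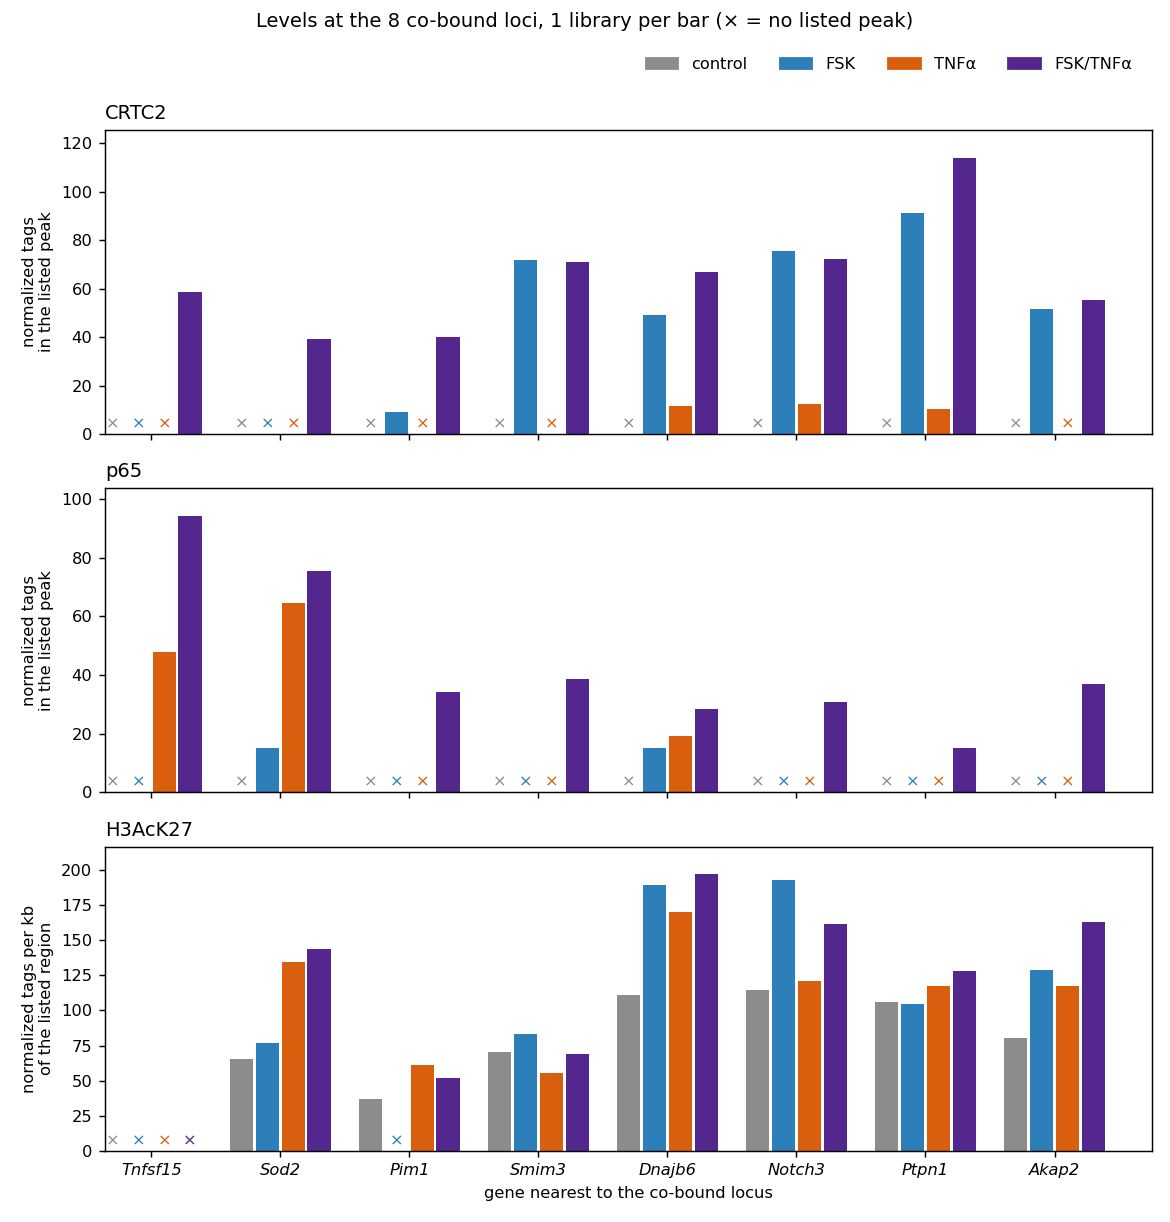
Normalized tags of the listed CRTC2 peak (top) and p65 peak (middle) and H3AcK27 normalized tags per kb of the separately listed region of each library (bottom) at the 8 co-bound loci, with 1 bar for each treatment's single library and a cross where no peak was listed. CRTC2 with TNFα reaches at most 12.5 normalized tags. With FSK/TNFα it lies between 39.0 and 114.1, but the loci were chosen for high scores in the CRTC2 and p65 lists of that treatment.

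At a start site of *Pim1*, *Ptpn1* and *Akap2* CRTC2 followed another order than at their co-bound loci. For *Akap2* this was the start site chr4:57782180 and not the one nearest to its locus. The different order did not hold for every gene, since CRTC2 at *Smim3* was not listed with TNFα at either place. At *Dnajb6* it was highest with FSK/TNFα at both. Within 1000 bp upstream and 100 bp downstream of the start site of a protein-coding transcript, CRTC2 was listed at 1 of the 8 genes in control (*Dnajb6*), 5 with FSK, 5 with TNFα and 6 with FSK/TNFα. Among all protein-coding genes the shares were 11.8%, 27.4%, 39.9% and 29.1%. *Tnfsf15* and *Notch3* had no CRTC2 peak there in any list.

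The *Ptpn1* start site had 17.0 normalized tags of CRTC2 with FSK, 41.6 with TNFα and 30.8 with FSK/TNFα. At the *Akap2* start site chr4:57782180 the values were 15.8, 41.9 and 25.8, and at *Pim1* they were 12.2, 21.9 and 18.9. CRTC2 was therefore highest with TNFα at these 3 start sites, whereas with TNFα it was lowest or not listed at the same genes' co-bound loci. At *Sod2* a peak centered 197 bp from a start site with FSK, and in that list past the 100 bp limit above, was listed in all 4 libraries. It had 17.5 normalized tags in control, 34.1 with FSK, 42.7 with TNFα and 31.8 with FSK/TNFα. *Dnajb6* likewise had a start-site peak in all 4, with 9.5, 28.0, 29.8 and 34.9. The *Smim3* start site had 9.1 with FSK and 19.8 with FSK/TNFα and was not listed with TNFα.

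The ratio of CRTC2 with TNFα to CRTC2 with FSK was 1.06 at the *Dnajb6* start site, 1.25 at *Sod2*, 1.80 at *Pim1*, 2.45 at *Ptpn1* and 2.65 at *Akap2*. At the co-bound loci of *Ptpn1*, *Notch3* and *Dnajb6*, the 3 with both values, it was 0.112, 0.166 and 0.237, and these ratios rest on the 3 TNFα peaks that were not 8-fold over input. Over all CRTC2 peaks shared by the FSK and TNFα lists, its median was 1.34 at 4558 peaks at start sites and 1.06 at 1067 peaks elsewhere.

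**Figure D3:**
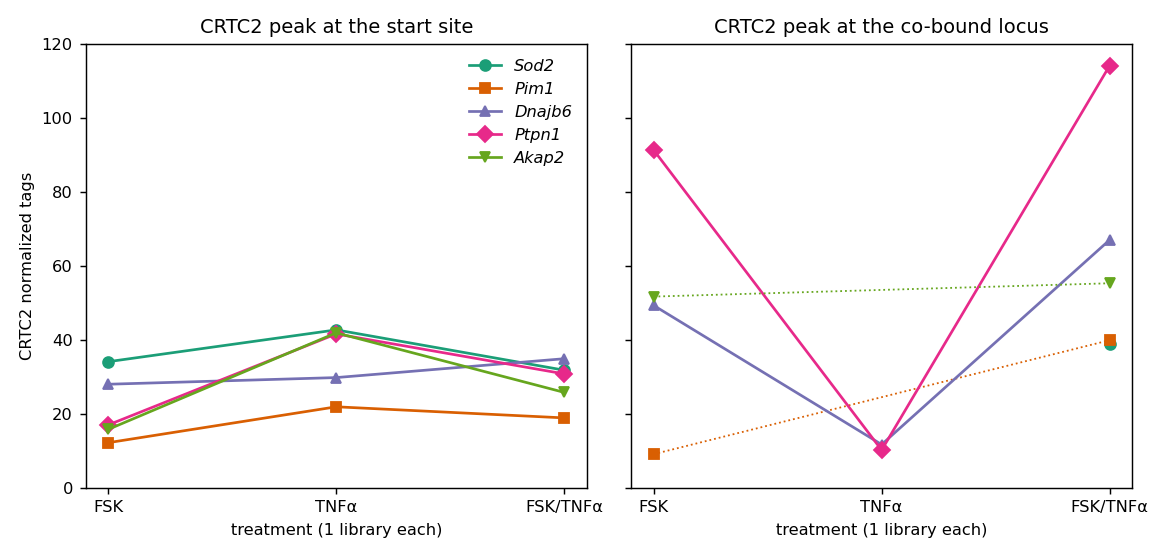
CRTC2 normalized tags with FSK, TNFα and FSK/TNFα at a start site (left) and at the co-bound locus (right) of 5 genes, 1 library per point. These genes had an FSK peak centered within 1000 bp of a start site, on either side, that overlapped a peak in both other treated lists. The strongest such FSK peak was used, which for *Akap2* is at chr4:57782180. Dotted lines join FSK to FSK/TNFα where no peak was listed with TNFα, and *Sod2* has a single point on the right. The *Ptpn1* locus goes from 91.3 to 10.2 to 114.1, whereas its start site goes from 17.0 to 41.6 to 30.8.

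p65 was listed at the start site of 0 of the 8 genes in control, with FSK, with TNFα and with FSK/TNFα, counting only starts of protein-coding transcripts, and the shares of all genes were also low at 0.0915%, 0.586%, 0.627% and 1.01%. With the start sites of every transcript of these genes, a setting added after the data were seen, p65 was at 0 genes in control, 1 with FSK (*Sod2*), 2 with TNFα (*Sod2* and *Dnajb6*) and 1 with FSK/TNFα (*Sod2*), against 0.105%, 0.773%, 0.783% and 1.31% of all genes. H3AcK27 was listed at the start sites of 6 of the 8 genes in each of the 4 libraries, against 51.7% of all genes in control, 47.0% with FSK, 51.4% with TNFα and 49.1% with FSK/TNFα. The 2 genes without it were *Tnfsf15* and *Notch3*, the same 2 that had no CRTC2 peak at a start site.

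Within 130 kb of the gene bodies, CRTC2 peaks were listed for 5 of the 8 genes in control, 8 with FSK, 7 with TNFα and, as the choice of genes requires, 8 with FSK/TNFα. Of all protein-coding genes, 55.5%, 74.3%, 81.4% and 78.0% had one. The 8 genes had 10, 57, 64 and 79 CRTC2 peaks in all. Windows were counted from the gene body, so *Akap2*, the longest of the 8 genes, was searched over more sequence than *Pim1*, the shortest. *Akap2* had 3 CRTC2 peaks in control, 13 with FSK, 13 with TNFα and 14 with FSK/TNFα, and *Smim3* had 2, 12, 11 and 13. *Tnfsf15* had the fewest, with 0, 2, 0 and 3. Merged across lists, the peaks fell at 138 sites, of which 92 were in 1 list only and 6 in all 4, and 35 were listed only with FSK/TNFα.

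p65 peaks within 130 kb were listed for 0 of the 8 genes in control, 5 with FSK, 4 with TNFα and, as the choice of genes requires, 8 with FSK/TNFα. Among all genes the shares were 3.81%, 29.7%, 26.8% and 38.9%. The totals for the 8 genes were 0, 14, 11 and 20 peaks, the last including the peaks that chose the genes. Over all genes the mean per gene was 0.0405, 0.431, 0.382 and 0.652. The peaks of the 8 genes fell at 40 sites, of which 37 were in 1 list only. There were 2 sites in all 3 treated lists, both of them co-bound loci (*Sod2* and *Dnajb6*). The *Ptpn1* window held 5 p65 peaks with FSK/TNFα and 0 in the other 3 lists, and the *Notch3* window 2 and 0. *Akap2* showed the opposite distribution, with 5 p65 peaks with FSK, 0 with TNFα and 1 with FSK/TNFα, the 5 lying at least 50660 bp from the locus. At *Tnfsf15* the 3 p65 peaks with FSK lay at least 96773 bp from the locus. H3AcK27 regions within 130 kb of the 8 genes numbered 146 in control, 134 with FSK, 135 with TNFα and 146 with FSK/TNFα, and the median of all genes was 9, 7, 9 and 8 regions per gene.

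The strongest CRTC2 peak near *Tnfsf15* was not at the co-bound locus. It lay about 8 kb upstream of the start site, at chr4:63753038-63753200 with FSK/TNFα, and had 165.1 normalized tags there and 170.9 with FSK. It was not listed in control or with TNFα, no p65 peak overlapped it, and it was 9.42-fold over input with FSK/TNFα and 8.67-fold with FSK. Near *Akap2*, the peak at the UTR of *Txn1*, the thioredoxin gene (named after its values were seen), was listed in all 4 libraries with 16.9 normalized tags in control, 59.0 with FSK, 62.7 with TNFα and 43.1 with FSK/TNFα.

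**Figure D4:**
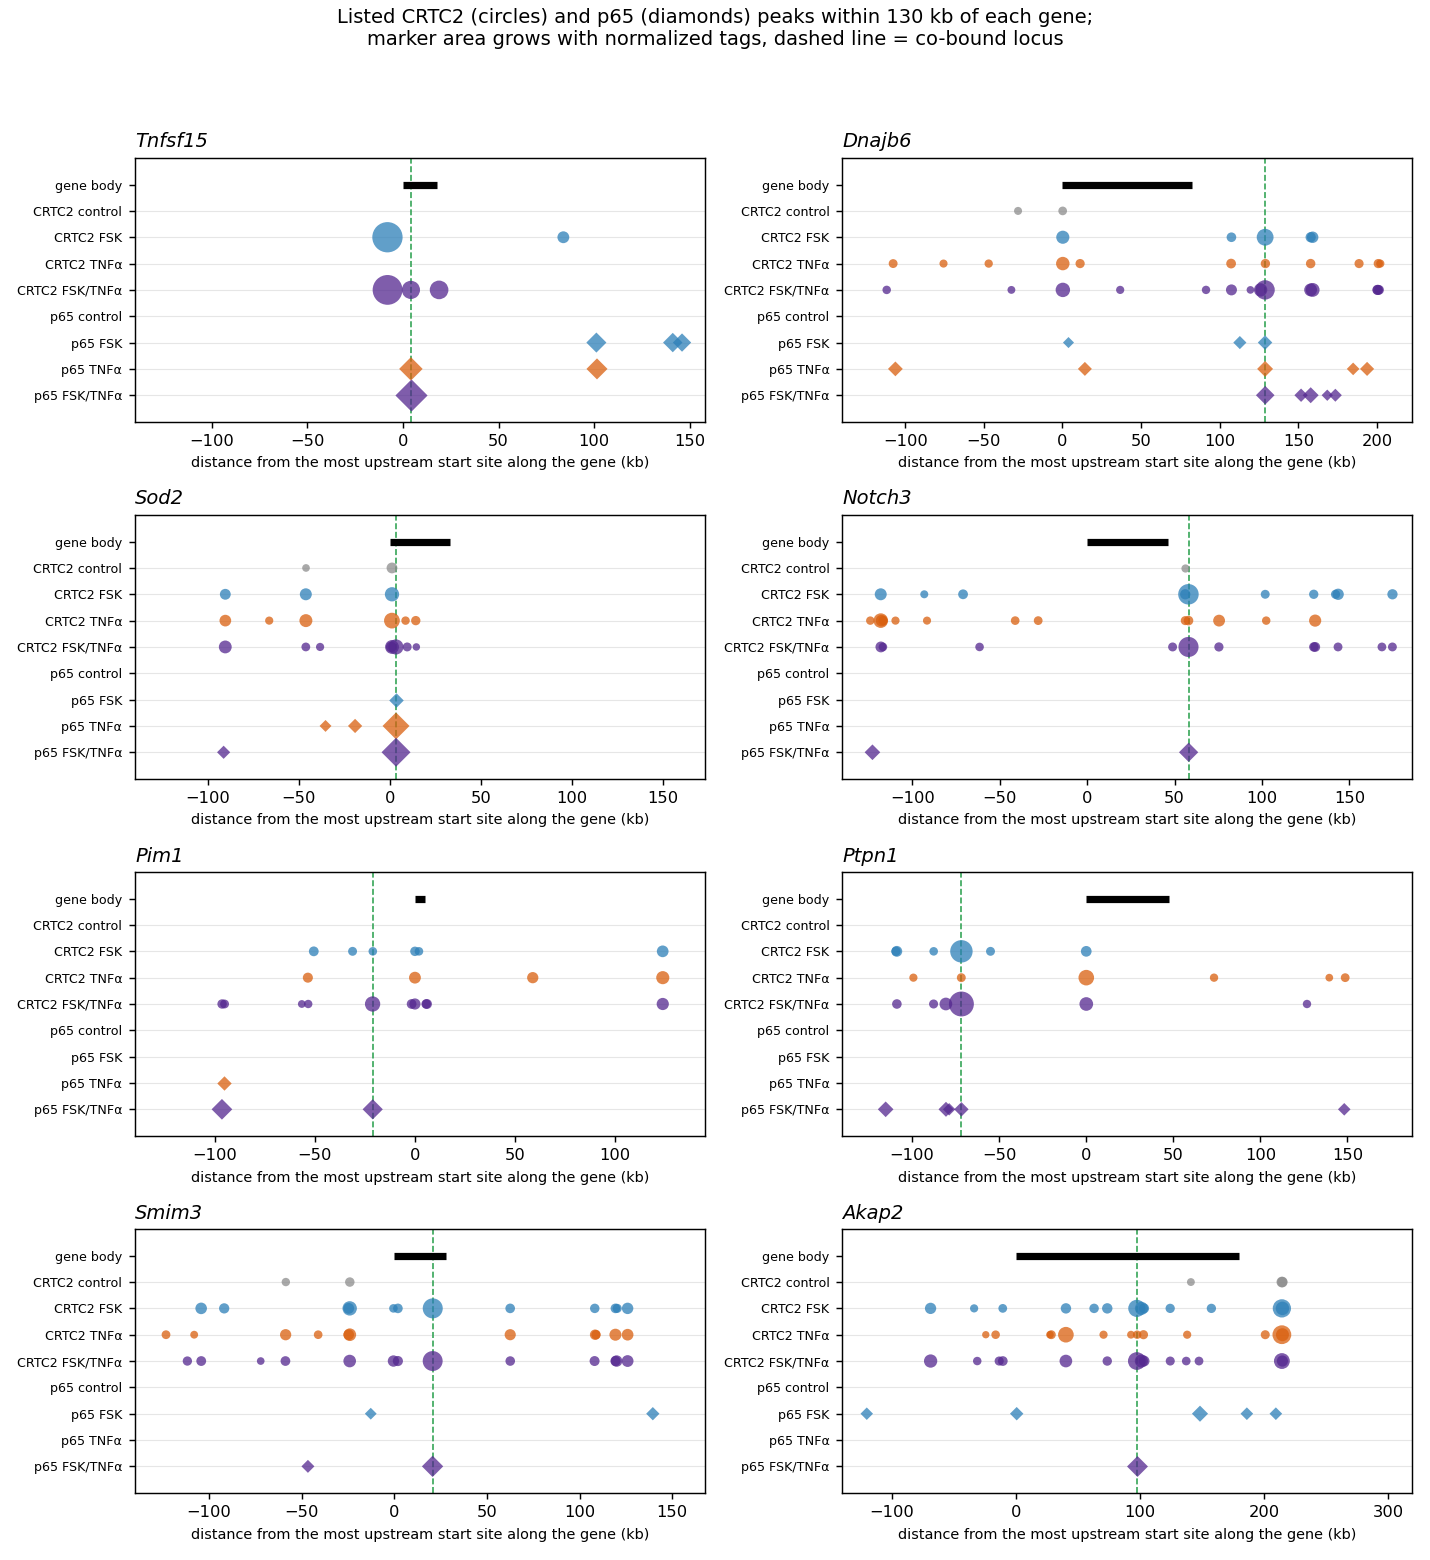
Listed CRTC2 peaks (circles) and p65 peaks (diamonds) within 130 kb of each gene by library, against distance in kb from the gene's most upstream start site of a protein-coding transcript, with marker area growing with normalized tags and a dashed line at the co-bound locus. A black bar with the length of the gene body is drawn from that start site. For *Akap2* the site is chr4:57742095 and the gene begins at chr4:57717657, so its bar is shifted downstream. p65 is listed in 0 control lanes, and the *Ptpn1* and *Notch3* panels show p65 only with FSK/TNFα.

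Other co-bound loci shared 3 of the windows. In the *Dnajb6* window a second one, 41st of 476, was nearest to *Il6*, the interleukin-6 gene and an NF-κB target, at 119686 bp from its start site, with 26.7 normalized tags of CRTC2 and 19.5 of p65. *Il6*, named after its position was seen, had its start site 148606 bp from the *Dnajb6* locus and CRTC2 at its start site in all 4 lists. In the *Ptpn1* window another locus, 96th of 476, had 26.1 normalized tags of CRTC2 and 16.6 of p65. In the *Pim1* window a locus nearest to *Fgd2*, a guanine nucleotide exchange factor, was 186th, with 11.9 of CRTC2 and 36.1 of p65. Counted over all protein-coding genes, 8.03% had a co-bound locus with FSK/TNFα within 130 kb.

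The windows held 34 other protein-coding genes, from 1 for *Dnajb6* to 9 for *Sod2*. The next gene by start site was *Wtap*, 16031 bp from the *Sod2* locus, *Dctn4*, 44850 bp from the *Smim3* locus, and *Hsf2bp*, 72485 bp from the *Notch3* locus. The start site of *Sik1*, a salt-inducible kinase and CREB target, was 253030 bp from the *Notch3* locus and outside the window, and it too was named after its position was seen. *Wtap* had H3AcK27 at its start site in all 4 lists and CRTC2 in 0, whereas *Dctn4* had both in all 4. Of the NF-κB candidate genes, 27 of 48 had a co-bound locus within 130 kb, and 24 of the 45 that are not among the 8 did. Of the CREB candidate genes, 6 of 31 did, namely *Sik1*, *Cebpb*, *Cebpd*, *Crtc1*, *Ucp1* and *Nfil3*. Both lists were drawn up with earlier results of these data known.

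**Figure D5:**
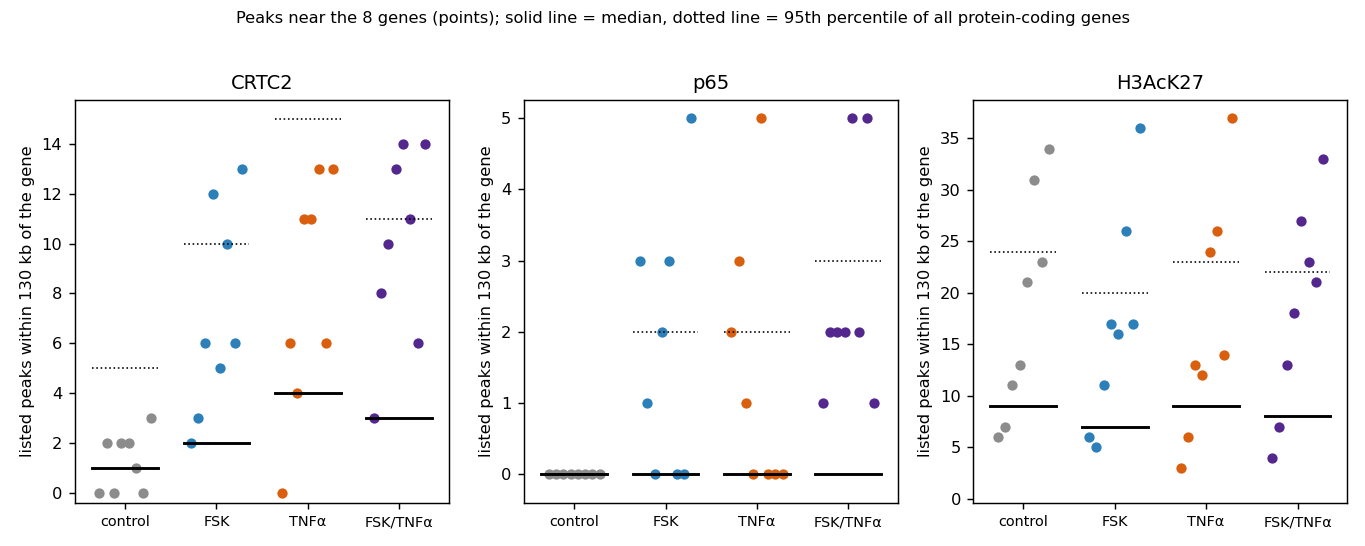
Listed peaks within 130 kb of each of the 8 genes (points, in the order in which the genes are named at the start) for CRTC2, p65 and H3AcK27 in 4 treatments, with the median of all 21853 protein-coding genes as a solid line and their 95th percentile as a dotted line. CRTC2 with FSK/TNFα runs from 3 to 14 peaks, against a median of 3 for all genes, and includes the peaks that chose the genes.

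The 12 lists were then used to compare the 8 loci with the other loci among the first 20. At most of the 8 loci CRTC2 was listed with FSK and FSK/TNFα, p65 with FSK/TNFα, and H3AcK27 under every treatment. *Smim3* and *Akap2* matched this pattern in 12 of 12 lists, *Pim1*, *Notch3* and *Ptpn1* in 11, *Sod2* and *Dnajb6* in 9, and *Tnfsf15* in 6. Of the other loci, that nearest to *Olfr279* matched in 12 and those nearest to *Osmr*, *Babam2*, *Lmna* and *Birc2* in 11. *Cebpb*, first in the order, matched in 8, with p65 listed under all 4 treatments. These matches share the FSK/TNFα values that chose the loci and are a description.

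In position the 8 loci were close to the rest. The CRTC2 and p65 midpoints were a median of 55 bp apart, against 53 bp over all 476 loci, and the median distance to a start site was 20860.5 bp against 20164.5 bp. There were 4 loci in introns and 4 between genes, where 38.2% and 56.1% of all loci lay. The GC content of the 200 bp windows had a median of 46.2% against 48.0%, and ran from 40.0% to 63.0%.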

How the data were processed

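ChIP-seq peak lists of 12 libraries were used. The authors called peaks in each library with HOMER and deposited the resulting lists. The deposited signal of a peak is its tag number scaled to 10000000 tags per library. The deposited score counts position-unique tags and is not corrected for input. The deposited fold values are ratios to the input and to the surrounding 10 kb, with a minimum of 4. STAR and mm10 are named in the submitters' processing notes. Depth limits which weak peaks are listed. Grouping followed the labels.

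Here, genes came from GENCODE mouse release 21 and sequences from RefSeq GRCm38.p6 (the start and end columns were read as in the files). Peaks overlapping by at least 1 bp formed a locus, linked to the nearest start site of a protein-coding transcript. The genes reported are the 8 members, neighbors within 130 kb that are candidates, next nearest or nearest to another co-bound locus, and loci among the first 20. *Il6*, *Sik1* and *Txn1* fall outside this rule and were named after their positions or values were seen. The members and gene lists were chosen with earlier results of these data known. The locus code was tested on simulated data. Python 3.11.15, numpy 2.4.6, pandas 2.3.3, pysam 0.24.0 and matplotlib 3.10.9 were used. Alternatives covered overlap, fold, list size, window and motif rules. Reads and the input libraries' own data were not analysed here.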

Additional observations from a re-analysis of the deposited data

Results flagged for a closer look

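H3AcK27 at the *Ptpn1* locus was picked out because the ratio of tags per kb lay on opposite sides of 1 without and with TNFα: FSK over control was 0.985 and FSK/TNFα over TNFα was 1.09, a quotient of 1.11. The control and FSK regions were called separately, at 11054 and 21596 bp, and shared 3769 bp, so these ratios compare different stretches and do not show that FSK moved the mark. Each value rests on 1 library, and the difference was not tested.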

How the results depend on the processing

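Of 96 alternative values, 70 stayed within 1.5 times the reported count and 26 moved; the causes were not tested. Requiring 8-fold over input left CRTC2 at 0 member loci with TNFα and p65 at 0 with FSK. It also left 35 CRTC2 peaks within 130 kb with FSK and 50 with FSK/TNFα, 8 p65 peaks with FSK and 7 with TNFα, and 54, 43, 57 and 46 H3AcK27 regions in control, FSK, TNFα and FSK/TNFα. With lists of equal size CRTC2 was at 0 member loci with TNFα, and the windows held 33, 17 and 42 CRTC2 peaks with FSK, TNFα and FSK/TNFα and 13 p65 peaks with FSK/TNFα. Windows set from the start site held 8 p65 peaks with FSK. Ranked by fold over input, 2 of the 8 loci were among the first 20. With noncoding genes included, 4 loci were nearest to the gene named. AP1 sites were at 6 loci in 400 bp and the TTGCNNCAA pattern at 0 in 100 bp. An NF-κB motif was at 1 of the 8 loci with 1 mismatch, against 23.5% of all co-bound loci. It was at 1 with the broad consensus, which was chosen after seeing the data, against 31.1%. With the start sites of every transcript, also chosen after seeing the data, CRTC2 was at the start sites of 2 members in control, and p65 at those of 1 with FSK, 2 with TNFα and 1 with FSK/TNFα. The 476 co-bound loci became 367 with midpoints within 100 bp, 727 with widened peaks and 240 at 8-fold, and a locus remained for 8, 8 and 6 of the 8 genes. With midpoints within 100 bp the described locus of *Dnajb6*, whose midpoints were 110 bp apart, was lost. *Dnajb6* was still counted, and the other co-bound locus in its window was the one nearest to *Il6*. At 8-fold the described loci of *Tnfsf15* (CRTC2 6.46-fold), *Ptpn1* (p65 4.11-fold) and *Akap2* (p65 6.72-fold) were lost. *Ptpn1* was still counted because of its other locus, 96th of 476. No paired analysis was possible because each combination had 1 library and no test was run. A shallow library can miss weak peaks, which limits every "not listed" above.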
